A study of Mus musculus with 22 samples.

Results

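The Cyp4 family of cytochrome P450 enzymes hydroxylates fatty acids and leukotrienes, and 7 of its genes were followed in the livers of mice given the anti-inflammatory drug diclofenac: Cyp4a10, Cyp4a14, Cyp4b1, Cyp4f13, Cyp4f14, Cyp4f15 and Cyp4v3. A member was measured where the array held a probe set annotated to its symbol and to no other gene. This gave 6 of the 7 genes, with 7 of the 45101 probe sets and 6 of the 18194 genes on the array. Cyp4v3 had 2 probe sets. Cyp4a10 had none of its own, and the only probe set that names it also names its paralog Cyp4a31. This probe set is given apart from the members as the probe set shared by Cyp4a10 and Cyp4a31. The study asked which genes of the liver respond to diclofenac. Male C57BL6 mice, 8 weeks old, received diclofenac sodium at 30 mg/kg or an equal volume of saline by daily intraperitoneal injection and were killed at day 1, day 3 or day 14. Each group of day 1 and of day 3 holds 3 livers and each group of day 14 holds 5 livers, with 1 Affymetrix Mouse 430 2.0 array per liver and 22 arrays in all. The labels give 5 mice to every group, so that not every mouse of days 1 and 3 is among the arrays. The methods of the paper state a different number of mice, so whether the arrays of day 14 cover every mouse is not known. All mice are of a single strain and sex, and saline and diclofenac are the only treatments.

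Enzymes of the Cyp4 family place a hydroxyl group at the end of a fatty acid chain, a reaction called omega-hydroxylation. In the liver, the Cyp4a enzymes act on medium-chain fatty acids such as lauric acid, and their genes are classical targets of the nuclear receptor PPARa, which fatty acids and fibrate drugs activate. The Cyp4f enzymes act on leukotrienes and other eicosanoids, and omega-hydroxylation of leukotriene B4 starts the removal of this neutrophil attractant. The hydroxylated fatty acid is passed to alcohol and aldehyde dehydrogenases and, as a dicarboxylic acid, to the beta-oxidation enzymes of the peroxisome.

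The members lie in 3 places of the genome (RefSeq annotation, build GRCm38.p6). Cyp4a14 (chr4:115486200-115496158), Cyp4a10 (chr4:115518287-115533649) and Cyp4b1 (chr4:115624698-115647721) are neighbours on chromosome 4. Cyp4f15 (chr17:32685631-32703352), Cyp4f14 (chr17:32903357-32917376) and Cyp4f13 (chr17:32924688-32947415) stand in a cluster on chromosome 17, and Cyp4v3 (chr8:45305801-45333163) is alone on chromosome 8. Promoter windows from RefSeq were at hand for 5 of the 7 members, and the table lists none for Cyp4a10 and Cyp4a14. The sequences just before the 3 Cyp4f genes and before Cyp4b1 are shown because Cyp4b1 and Cyp4f13 are the 2 members that passed the test described further on, and because the 3 Cyp4f genes share a motif. Each is given 5′ to 3′ on the strand of its gene and ends at the base before the annotated gene. The capitals mark ATTGG, which is the CCAAT box read on the opposite strand. The positions are chr17:32947416-32947611 (minus strand) for Cyp4f13, chr17:32917377-32917606 (minus strand) for Cyp4f14, chr17:32685409-32685630 (plus strand) for Cyp4f15 and chr4:115647722-115647971 (minus strand) for Cyp4b1.
Cyp4f13: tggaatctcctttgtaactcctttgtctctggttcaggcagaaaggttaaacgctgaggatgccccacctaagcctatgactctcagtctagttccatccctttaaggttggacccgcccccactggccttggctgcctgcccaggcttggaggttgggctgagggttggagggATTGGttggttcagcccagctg
Cyp4f14: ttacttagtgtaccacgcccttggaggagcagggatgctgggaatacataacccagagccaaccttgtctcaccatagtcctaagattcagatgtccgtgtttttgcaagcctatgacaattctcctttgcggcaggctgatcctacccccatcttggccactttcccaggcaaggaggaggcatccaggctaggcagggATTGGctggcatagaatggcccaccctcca
Cyp4f15: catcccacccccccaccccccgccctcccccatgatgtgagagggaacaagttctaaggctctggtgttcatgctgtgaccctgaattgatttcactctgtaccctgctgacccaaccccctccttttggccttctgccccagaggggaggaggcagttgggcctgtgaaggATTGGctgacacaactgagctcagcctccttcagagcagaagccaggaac
Cyp4b1: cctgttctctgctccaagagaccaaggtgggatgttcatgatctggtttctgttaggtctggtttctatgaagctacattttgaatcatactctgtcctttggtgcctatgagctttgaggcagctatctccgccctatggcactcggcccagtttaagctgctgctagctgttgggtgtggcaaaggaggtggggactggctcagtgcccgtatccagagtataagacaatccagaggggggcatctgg
The CCAAT box stands 22 bases before the end of the window in Cyp4f13, 30 in Cyp4f14 and 50 in Cyp4f15, each time on the opposite strand. In all 3 it is followed by CC on its own strand (CCAATCC), letters that were chosen after the sequences had been seen. Over the 250 bases before a start site and on both strands, CCAAT is present in 33.8% and CCAATCC in 4.17% of the 32851 windows of all genes. CCAATCC is found for 3 of the 5 members and for 4 of 8 Cyp4f genes, where Cyp4f18 is the other one, and CCAAT is not found for Cyp4b1 or Cyp4v3. AGGTCA, the half-site of nuclear receptors (14% of windows), and TATAAA, the TATA box (12.4%), are found for none of the 5. TTGCNNAA, a motif of C/EBP factors (9.56%), is found for Cyp4f14 alone among them. These matches describe letters in a window and are not binding sites.

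Values are linear MAS5 array signals, which are given per probe set and cannot be set against each other between probe sets. Differences are of log2 signals and were tested with limma over all genes whose signal lay above the array median in at least 3 arrays, with Benjamini-Hochberg adjustment over all of these genes and a threshold of 0.05, called "passed" here. In this bulk liver RNA, fewer cells of a type and less RNA per cell cannot be told apart. The hepatocyte markers were high in every group, with 9 of 9 tested markers above the array median, and none of them passed for diclofenac. Neutrophil markers moved with the treatment, their summed signal being 431 to 1422 in saline livers and 871 to 26520 in diclofenac treated livers. The group medians of this sum at days 1, 3 and 14 were 954, 769 and 681 with saline and 2129, 3516 and 2437 with diclofenac. Of 16 acute phase genes, 15 had differences above 0 over the 3 days and 11 passed, all of them higher, against 1.68% of all genes tested. This list was chosen with earlier results of these data known. A pair of livers stands apart in the Cyp4 genes, namely diclofenac day 14 replicate 3 and diclofenac day 1 replicate 2. The acute phase genes were above every saline liver of the day in 16 and 13 of 16 cases in these livers in turn. In the other 9 treated livers it was 11 to 16 of 16. This count does not measure the size of the response, and the share of all genes above every saline liver was not set beside it. The median difference of the acute phase list was 1.04 at day 1 and 1.61 at day 14, and 0.62 and 1.09 without both livers. For the diclofenac differences of the members, values without both livers are given beside the main ones where they move by more than 1.5-fold or change a direction, an alternative chosen after seeing the data. The number of arrays limits the precision throughout.

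All 6 measured members had lower mean signals in diclofenac treated than in saline livers at day 1, at day 3 and at day 14, which makes 18 of 18 differences below 0. Over the 20 arrays without both livers that stand apart, it was 16 of 18. Over the 3 days, Cyp4b1 fell by 0.46 and Cyp4f13 fell by 0.43 on the log2 scale, and both passed the test. The other 4 members had mean differences of -0.30 to -0.55 and did not pass. The median difference of the 6 members was -0.37 at day 1, -0.31 at day 3, -0.60 at day 14 and -0.45 over the 3 days. Over all genes tested, the medians were 0.00099, 0.0088, -0.014 and -0.0050, and 49.8%, 48.6%, 52.2% and 50.8% of the genes lay below 0. The median of the 6 members without both livers that stand apart was -0.30 at day 1, -0.31 at day 3, -0.27 at day 14 and -0.30 over the 3 days, so that the value of day 14 was smaller by more than 1.5-fold without replicate 3.
For the mean of the 3 days, 2 of 6 members passed against 1.68% of all genes tested (224 of 13340, of which 59 were lower). Once both livers that stand apart were left out, the same 2 members passed, against 2.77% of all genes (365 of 13185). The members were chosen with earlier results of these data known, so that these shares and the directions above are a description.
On single days no member passed. Among all genes, 0% passed at day 1 (0 of 12884, with 1674 at an unadjusted p under 0.05), 0.202% at day 3 (26 of 12884) and 0% at day 14 (0 of 11884, with 1287 at an unadjusted p under 0.05).
Every diclofenac treated liver lay below every saline liver for 2 of 6 members at day 1, 3 of 6 at day 3 and 1 of 6 at day 14. The same held for 8.1%, 9.21% and 1.6% of all genes tested.
By the methods' t-test (unadjusted p under 0.05 and more than 1.5-fold), Cyp4b1 was counted at day 14 and no other member on any day, where 1.46%, 2.49% and 2.39% of all genes were counted at days 1, 3 and 14. After Benjamini-Hochberg adjustment this test called 0 genes on each day.

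**Figure D1:**
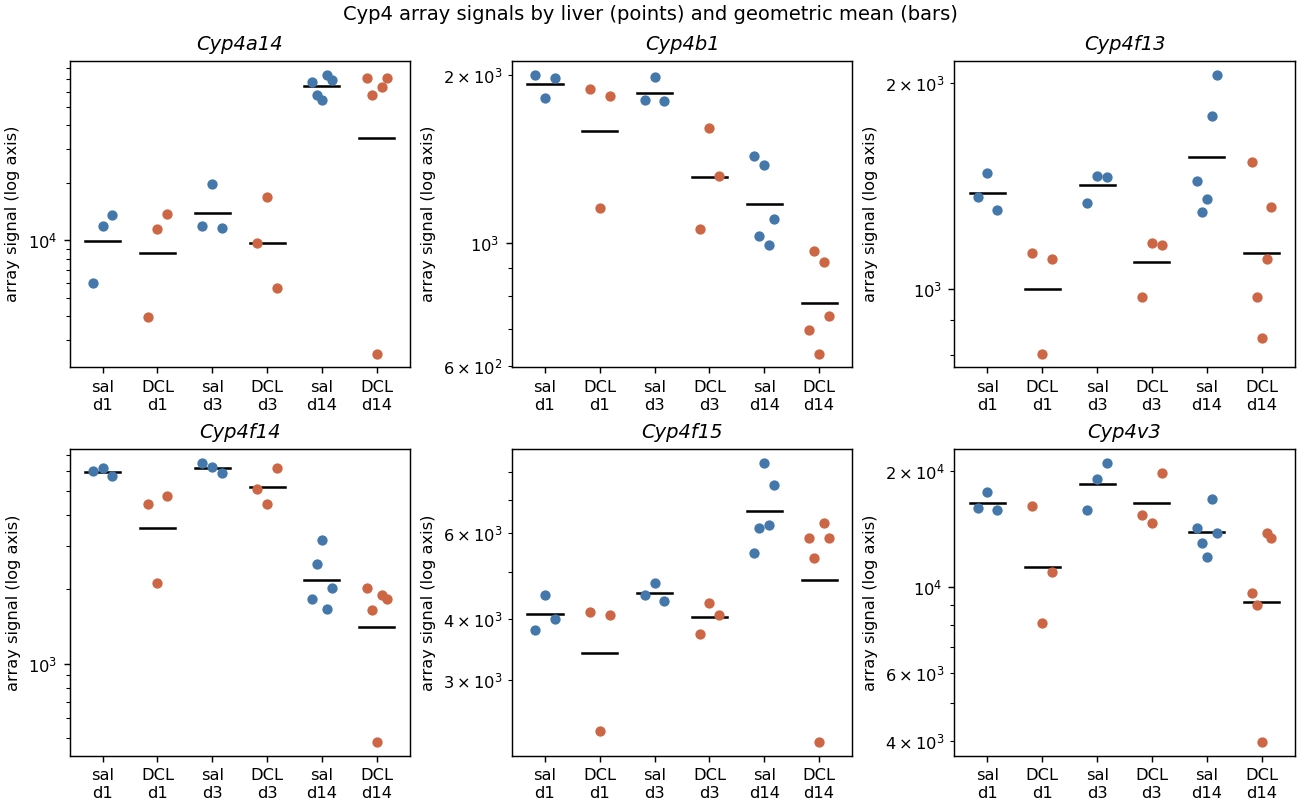
Array signal (log axis) of the 6 measured Cyp4 genes in each of 22 livers, in saline (sal, blue) and diclofenac (DCL, orange) groups of day 1 (d1), day 3 (d3) and day 14 (d14), with the geometric mean of each group as a bar. The diclofenac bar lies below the saline bar of the same day in every panel, and Cyp4a14 is high in both groups of day 14 except in 1 diclofenac treated liver at 2548.

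Cyp4b1 encodes a P450 that hydroxylates short and medium-chain fatty acids and activates several foreign compounds, and it is best known from the lung. It was lower with diclofenac in all 11 of 11 treated livers when each was set against the saline mean of its own day.
At day 1 the signals were 2002, 1822 and 1974 in saline livers and 1887, 1154 and 1836 in diclofenac treated livers. At day 3 they were 1805, 1983 and 1797 with saline and 1060, 1609 and 1320 with diclofenac. At day 14 they were 1429, 1026, 1380, 990 and 1104 with saline and 696, 964, 631, 923 and 737 with diclofenac.
The groups overlap at day 1, where replicate 2 of the diclofenac group is far below the rest, and they do not overlap at days 3 and 14.
The log2 differences were -0.28, -0.51 and -0.59 at days 1, 3 and 14 with standard errors of 0.18, 0.18 and 0.15 (limma, adjusted p = 0.528, 0.324 and 0.229). The two-sided exact permutation test gave p = 0.3 and 0.1 at days 1 and 3, where 0.1 is the smallest that 3 against 3 livers allow, and p = 0.0079 at day 14, the smallest that 5 against 5 allow.
Over the 3 days Cyp4b1 fell by 0.46 on the log2 scale, or by 27.2% (95% interval 15.1 to 37.6% lower, standard error 0.11 on the log2 scale, adjusted p = 0.0275 from limma). The exact permutation test within days gave p = 7.9e-05, unadjusted, over 100800 splits.
Without both livers that stand apart the difference was -0.36 (adjusted p = 0.0360, limma), and that of day 1 was -0.05 instead of -0.28. With a replicate block Cyp4b1 did not pass (adjusted p = 0.0755, limma). Leaving out 1 array at a time, the adjusted p ranged from 0.0183 to 0.0810 and was above 0.05 in 7 cases: without any 1 of the 3 saline livers of day 1, saline day 3 replicate 2 or 3, diclofenac day 1 replicate 2 or diclofenac day 3 replicate 1. The difference was between -0.51 and -0.38 in all 22 cases.

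Cyp4f13 belongs to the Cyp4f subfamily, which acts on eicosanoids and long-chain fatty acids. It was likewise below the saline mean of the day in 11 of 11 diclofenac treated livers.
At day 1 the signals were 1363, 1475 and 1303 with saline and 1128, 803 and 1104 with diclofenac. At day 3 they were 1333, 1462 and 1458 with saline and 973, 1166 and 1158 with diclofenac. At day 14 they were 1439, 1293, 1354, 1789 and 2055 with saline and 1535, 970, 846, 1105 and 1315 with diclofenac.
All treated livers lay below all saline livers at days 1 and 3. At day 14 the groups overlap, since replicates 1 and 5 of the diclofenac group reached the range of the saline group.
The differences were -0.46, -0.37 and -0.47 on the log2 scale at days 1, 3 and 14 (adjusted p = 0.273, 0.331 and 0.387 from limma), with exact permutation p = 0.1, 0.1 and 0.063.
Over the 3 days Cyp4f13 fell by 0.43 on the log2 scale, or by 26.0% (95% interval 13.8 to 36.4% lower, standard error 0.11 on the log2 scale, adjusted p = 0.0367 from limma). The exact permutation test within days gave p = 0.00016, unadjusted.
Over the 20 arrays without both livers that stand apart, the value was -0.35 (adjusted p = 0.0475, limma), and that of day 1 was -0.30. With each array centred on its median, Cyp4f13 did not pass (-0.44, adjusted p = 0.0856, limma). It also did not pass in 12 of the 22 fits that left out 1 array, in which the difference was -0.45 to -0.38 and the adjusted p 0.050 to 0.105 (limma): without any of the 6 saline livers of days 1 and 3, saline day 14 replicate 4 or 5, diclofenac day 1 replicate 2, diclofenac day 3 replicate 1 or 2, or diclofenac day 14 replicate 2.

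**Figure D2:**
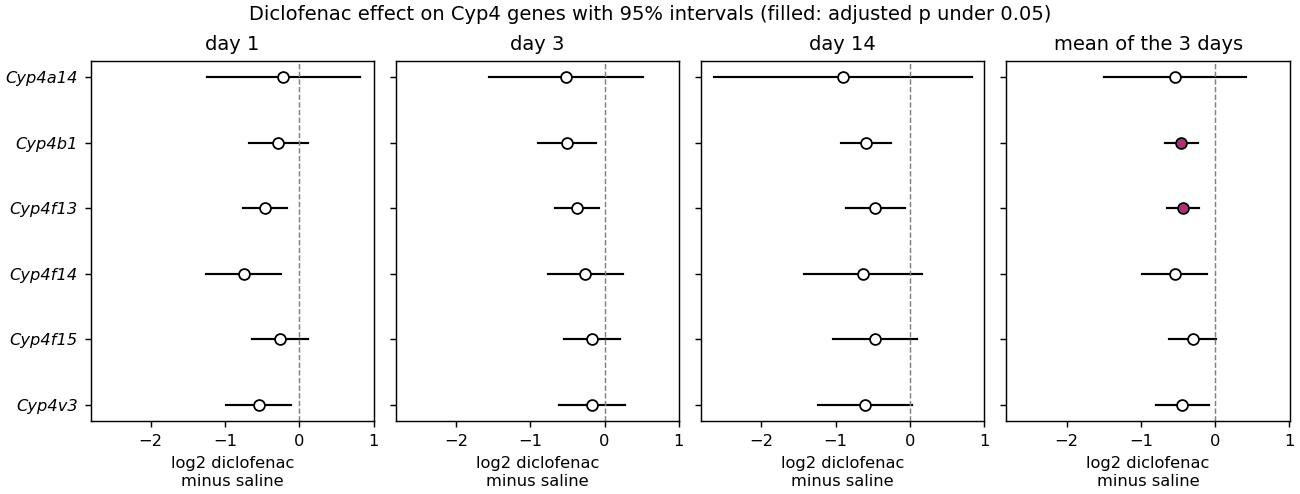
Difference of mean log2 signal, diclofenac minus saline, for the 6 measured Cyp4 genes at day 1, day 3 and day 14 and for the mean of the 3 days (points), with 95% intervals from limma (lines). All 24 points lie below 0 (dashed), and the filled points, Cyp4b1 and Cyp4f13 for the mean of the 3 days, have an adjusted p under 0.05.

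Cyp4f14 is the main leukotriene B4 omega-hydroxylase of mouse liver and also starts the breakdown of vitamin E. It too was below the saline mean of the day in 11 of 11 treated livers, but it varied more among them and did not pass the test.
At day 1 its signals were 6018, 6191 and 5725 with saline and 4442, 2125 and 4761 with diclofenac. At day 3 they were 6487, 6245 and 5893 with saline and 5098, 4432 and 6170 with diclofenac. At day 14 they were 1821, 2538, 3157, 1670 and 2033 with saline and 2034, 1644, 484, 1897 and 1822 with diclofenac.
Only at day 1 did the groups not overlap, and the lowest liver of day 14, replicate 3 at 484, lay well below the other 4 of its group.
The differences at days 1, 3 and 14 were -0.75, -0.26 and -0.63 on the log2 scale (adjusted p = 0.296, 0.731 and 0.542 from limma).
The mean over the 3 days was -0.55 (standard error 0.21, adjusted p = 0.182, limma), with an exact permutation p of 0.0014, unadjusted. Once both livers that stand apart were left out, it was -0.29 (adjusted p = 0.115, limma), with -0.38 at day 1 and -0.24 at day 14, all smaller by more than 1.5-fold.

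Cyp4f15, a neighbour of Cyp4f14 that also hydroxylates leukotriene B4, had the smallest mean difference of the 6 members.
Its signals at day 1 were 3795, 4482 and 4005 with saline and 4123, 2350 and 4063 with diclofenac. At day 3 they were 4472, 4726 and 4354 with saline and 3722, 4315 and 4065 with diclofenac. At day 14 they were 5465, 6141, 8344, 6221 and 7530 with saline and 5852, 5335, 2240, 6282 and 5846 with diclofenac.
The groups were apart at day 3, by a narrow margin, and overlapped at days 1 and 14, where a single treated liver was far below the rest on each day.
The differences were -0.26, -0.17 and -0.47 on the log2 scale (adjusted p = 0.533, 0.781 and 0.530 from limma), and the mean over the 3 days was -0.30 (standard error 0.15, adjusted p = 0.295). The exact permutation test over the 3 days gave p = 0.011, unadjusted.
Without both livers that stand apart the mean difference was -0.12 (adjusted p = 0.423, limma) and that of day 1 was 0.0031, so that the direction at day 1 rests on diclofenac replicate 2 of that day. At day 14 it was -0.20 without replicate 3.

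Cyp4v3 is the mouse counterpart of human CYP4V2, a fatty acid hydroxylase whose loss causes a crystalline dystrophy of the retina.
Its brighter probe set had signals at day 1 of 16055, 17693 and 15885 with saline and 16289, 8062 and 10989 with diclofenac. At day 3 they were 15900, 19064 and 20989 with saline and 15436, 14711 and 19765 with diclofenac. At day 14 they were 14251, 13033, 11994, 16947 and 13846 with saline and 9678, 9002, 3981, 13801 and 13397 with diclofenac.
The groups overlapped on each day, and the lowest treated livers were again replicate 2 at day 1 and replicate 3 at day 14.
The differences were -0.55, -0.17 and -0.61 on the log2 scale (adjusted p = 0.327, 0.818 and 0.484 from limma), and -0.44 over the 3 days (standard error 0.17, adjusted p = 0.184, exact permutation p = 0.0073, unadjusted).
The second probe set of Cyp4v3 gave -0.75, -0.38 and -0.55 at days 1, 3 and 14 and -0.56 over the 3 days (standard error 0.19, adjusted p = 0.157 over every probe set, limma), in the same direction on each day. Over the 20 arrays without both livers that stand apart, the brighter probe set of Cyp4v3 had differences of -0.30 at day 1, -0.31 at day 14 and -0.26 over the 3 days (adjusted p = 0.191 for the last, limma), and the second had -0.37, -0.24 and -0.33.

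Cyp4a14 encodes a lauric acid omega-hydroxylase that PPARa induces strongly, and its signal varied more than that of any other member.
At day 1 it was 5991, 11887 and 13629 with saline and 3950, 11447 and 13796 with diclofenac. At day 3 it was 11877, 19609 and 11546 with saline and 9723, 16853 and 5611 with diclofenac. At day 14 it was 67693, 57892, 54479, 73332 and 68815 with saline and 70769, 57959, 2548, 63782 and 70606 with diclofenac.
The groups overlapped on each day. At day 14, 4 of the 5 treated livers lay within the range of the saline livers, but replicate 3 was 25.1-fold below their geometric mean, and 27 of the 11884 genes tested that day lay lower still in this liver.
The differences were -0.21, -0.52 and -0.90 on the log2 scale at days 1, 3 and 14 with standard errors of 0.48, 0.48 and 0.79 (limma, adjusted p = 0.879, 0.742 and 0.689), and -0.54 over the 3 days (standard error 0.46, adjusted p = 0.546). The exact permutation test over the 3 days gave p = 0.19.
Without replicate 3 the difference of day 14 was 0.03 (standard error 0.11, adjusted p = 0.931, limma), and the interval at day 14 with all livers ran from -2.64 to 0.83. The mean over the 3 days was -0.23 without this liver and -0.30 without both livers that stand apart (adjusted p = 0.554), against -0.54 with all. Without both, the value of day 1 was -0.42.
Leaving out diclofenac day 1 replicate 1 turned the difference of Cyp4a14 at day 1 from -0.21 to 0.34.

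The probe set shared by Cyp4a10 and Cyp4a31 was likewise brightest at day 14, apart from the same treated liver. Its signals at day 1 were 15733, 20598 and 24082 with saline and 15373, 8391 and 19027 with diclofenac, and at day 3 they were 27766, 33244 and 28272 with saline and 17956, 22436 and 20150 with diclofenac. At day 14 they were 80135, 69591, 66987, 90993 and 84589 with saline and 77640, 70782, 2621, 82563 and 85265 with diclofenac.
At day 3 all treated livers were below all saline livers, at day 1 the groups overlapped, and at day 14 replicate 3 of the diclofenac group was 29.7-fold below the geometric mean of the saline livers while the other 4 were within their range.
The differences were -0.56, -0.56 and -0.97 on the log2 scale (adjusted p = 0.415, 0.458 and 0.696 from limma over every probe set), and -0.69 over the 3 days (adjusted p = 0.440, exact permutation p = 0.0090, unadjusted). The value without both livers that stand apart was -0.21 at day 1, 0.02 at day 14 and -0.25 over the 3 days (adjusted p = 0.141 for the last, limma over every probe set), so that those of day 1 and of the 3 days were smaller by more than 1.5-fold.
Cyp4a14 and the shared probe set had a correlation of 0.90 between their deviations from the 6 group means over 22 arrays, and of 0.73 over 20 arrays without both livers that stand apart. The Cyp4a genes are close paralogs, so that probes of one may also bind transcripts of another, and these signals cannot be assigned to single genes with certainty.

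**Figure D3:**
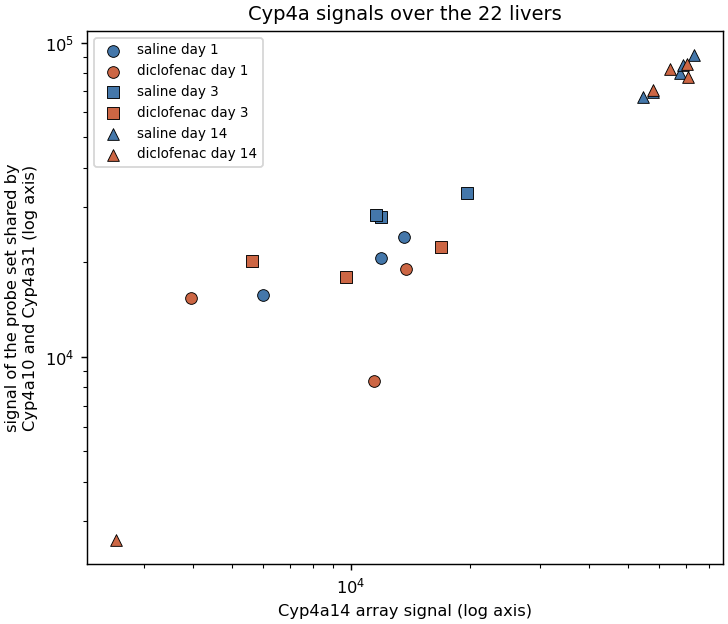
Signal of the probe set shared by Cyp4a10 and Cyp4a31 against the signal of Cyp4a14 in 22 livers (both axes logarithmic), coloured by treatment with a marker for each day. The livers of day 14 form a group at the upper right, apart from diclofenac replicate 3 at 2548 and 2621, which is the lowest of all 22 on both axes.

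The diclofenac effect was not shown to differ between days for any member. The day 3 effect minus the day 1 effect ranged from -0.30 (Cyp4a14) to 0.49 (Cyp4f14) on the log2 scale, with adjusted p from 0.881 to 0.955 (limma). The interval was -0.22 to 1.21 for Cyp4f14 and -1.77 to 1.16 for Cyp4a14, so that differences of 2-fold between the days are within reach of the error. The day 14 effect minus the mean of days 1 and 3 was between -0.54 (Cyp4a14) and -0.05 (Cyp4f13), with adjusted p from 0.930 to 0.983 (limma). These differences without both livers that stand apart ranged from -0.45 (Cyp4b1) to 0.14 (Cyp4v3) and from -0.23 (Cyp4b1) to 0.50 (Cyp4a14), and no member passed. Of all genes tested, 0% passed for the first of these differences (0 of 12884, with 694 at an unadjusted p under 0.05) and 0.0225% for the second (3 of 13340).

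In livers given saline alone, Cyp4a14 and Cyp4f15 were higher and Cyp4b1 and Cyp4f14 lower at day 14 than on the earlier days. Between saline day 3 and saline day 1 no member passed, with differences of -0.05 (Cyp4b1) to 0.49 (Cyp4a14) on the log2 scale, where 0.217% of all genes passed (28 of 12884).
Between saline day 14 and the mean of saline days 1 and 3, 4 of 6 members passed, and 28.4% of all genes did (3787 of 13340, 2129 of them lower). With each array centred on its median, 2742 of 3815 were lower, as the median of all genes moved from -0.06 to -0.16, and the 6 members kept their directions, but Cyp4f15 did not pass.
Cyp4a14 was higher by 2.45 on the log2 scale, or 5.46-fold (standard error 0.63, adjusted p = 0.0063, limma), and its order of saline means was day 1 (10502), day 3 (14344) and day 14 (64442), of which days 1 and 3 did not differ beyond their spread.
Cyp4f15 was higher by 0.63 (adjusted p = 0.0272), with saline means of 4094, 4517 and 6740 at days 1, 3 and 14. It did not pass with each array centred on its median (0.53, adjusted p = 0.0931), with a replicate block (0.51, adjusted p = 0.144) or without saline day 1 replicate 1, saline day 3 replicate 3 or saline day 14 replicate 3 or 5, all by limma.
Cyp4f14 was 2.79-fold lower at day 14 (-1.48, adjusted p = 0.00066), its means being 5978, 6208 and 2244, so that these neighbours on chromosome 17 moved in opposite directions.
Cyp4b1 was 1.62-fold lower (-0.69, adjusted p = 0.0013), with 1933, 1862 and 1186. Cyp4f13 (0.16, adjusted p = 0.451) and Cyp4v3 (-0.33, adjusted p = 0.326) did not pass, all by limma. Without both treated livers that stand apart, the brighter probe set of Cyp4v3 passed at the same difference of -0.33 (adjusted p = 0.0496, limma). The second probe set of Cyp4v3 went the other way and did not pass. It had 0.08, with adjusted p = 0.848 on all arrays and 0.681 without both livers (limma over every probe set).
The shared probe set of Cyp4a10 and Cyp4a31 was higher by 1.68 (adjusted p = 0.0377 over every probe set, of which 32.5% passed). Day 14 differs from the earlier days in the age of the mice and in the number of injections, and any difference in array work between days cannot be told apart from these. The paper also reports that saline mice of the last time point lost body weight, while those of the earlier time points did not. The part of this weight loss in the saline differences was not tested.

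The treated livers did not respond evenly. In diclofenac day 14 replicate 3, all 6 members were below every saline liver of the day, as were 35.1% of all genes tested. In the other 4 treated livers of day 14 it was 1 to 5 of the 6, against 16.4 to 21% of all genes. In diclofenac day 3 replicate 1 it was also all 6 (30.6% of all genes), and in diclofenac day 1 replicate 2 it was 5 of 6 (35.4%). The deviations of diclofenac day 14 replicate 3 from the saline mean were -4.65 for Cyp4a14, -2.17 for Cyp4f14, -1.81 for Cyp4v3, -1.57 for Cyp4f15, -0.89 for Cyp4b1 and -0.88 for Cyp4f13 on the log2 scale.
In diclofenac day 1 replicate 2 they were -1.49 for Cyp4f14, -1.04 for Cyp4v3, -0.80 for Cyp4f15, -0.78 for Cyp4f13 and -0.74 for Cyp4b1, whereas Cyp4a14 was at 0.21 and the shared probe set of Cyp4a10 and Cyp4a31 at -1.24.
In that liver Cyp4a14 lay within the range of the saline livers of day 1 (deviations of -0.72 to 0.46), and the shared probe set lay below all of them. In the liver of day 14 both were low.
These 2 livers also differ in other genes. The neutrophil markers were above every saline liver of the day in 8 of 8 cases in the liver of day 14 (median deviation 4.01) and in 9 of 9 in that of day 1 (2.60), against 3 to 8 markers in the other 9 treated livers, while the median of the hepatocyte markers was 0.22 and 0.09. The share of all genes above every saline liver was not set beside these counts. The part of these markers in the Cyp4 values was not tested.
As a sign of RNA quality, the signals of the Gapdh and Actb controls at the 3′ end were divided by those at the 5′ end. The log2 of this ratio was 0.693 in the liver of day 14 and 0.691 to 0.805 in its group, and 0.602 in the liver of day 1 against 0.559 to 0.602 in its group. At day 14 this ratio was higher with diclofenac than with saline (0.736 ± 0.049 and 0.624 ± 0.063, SD, n = 5, exact permutation p = 0.024), and its part in the values of that day was not tested.
Between members, the correlation of deviations from the 6 group means over 22 arrays was 0.14 to 0.93 in the 15 pairs, with a median of 0.58. Over the 20 arrays without both livers it was -0.37 to 0.53, with a median of -0.011, and the pair of Cyp4f14 and Cyp4f15 went from 0.93 to 0.53.
The correlation among members over 22 arrays rests in large part on these 2 livers. They were picked for their low Cyp4 values, so that a lower correlation without them follows in part from that choice.

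**Figure D4:**
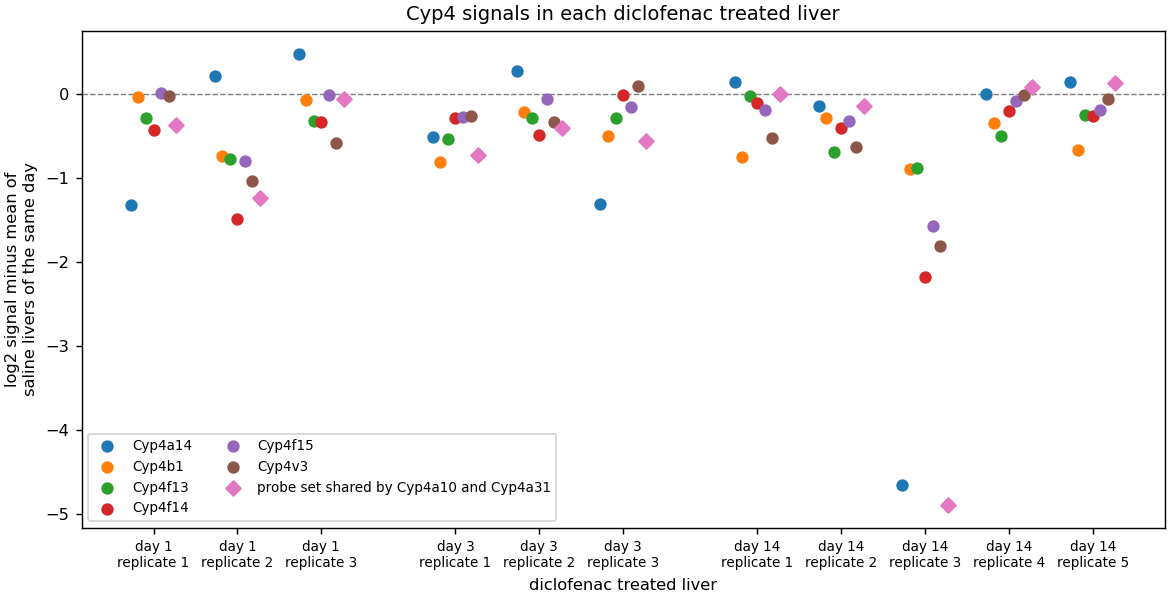
Log2 signal minus the mean of the saline livers of the same day in each of the 11 diclofenac treated livers, for the 6 measured Cyp4 genes (circles) and for the probe set shared by Cyp4a10 and Cyp4a31 (diamonds). Replicate 3 of day 14 reaches -4.65 for Cyp4a14 and -4.89 for the shared probe set, and replicate 2 of day 1 is the liver with the lowest Cyp4f14 value of the early days at -1.49.

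Of 14 other Cyp4 genes, 7 had a probe set of their own and 4 were bright enough to be tested, none of which passed. Cyp4a12a, the male-predominant lauric acid and arachidonic acid hydroxylase of mouse liver, had differences of -0.96, -0.56 and -1.08 at days 1, 3 and 14 and of -0.87 over the 3 days (standard error 0.40, adjusted p = 0.253, limma).
Its signal was 608 in diclofenac day 1 replicate 2 and 1433 in diclofenac day 14 replicate 3, against 5488 to 16007 in the saline livers, so that the same 2 livers were lowest for Cyp4a12a as for most members. Without both, its differences were 0.23 at day 1, -0.56 at day 3, -0.59 at day 14 and -0.31 over the 3 days (adjusted p = 0.494 for the last, limma), so that the direction at day 1 turned.
Cyp4a31, a paralog of Cyp4a10, had a mean difference of -0.25 (adjusted p = 0.715, limma), with 0.53, -0.63 and -0.66 at days 1, 3 and 14. Without both livers that stand apart, these were 0.11, -0.63 and 0.01 by day. Its dimmer probe set had 0.46, -1.05 and -1.02 (0.13, -1.05 and -0.47 without both livers), and neither passed on any day. The probe set shared with Cyp4a10 had -0.56 at day 1, opposite to both. In saline livers Cyp4a31 was higher by 2.21 at day 14 than at days 1 and 3 (adjusted p = 0.0011, limma), as was Cyp4a14.
Cyp4f16 and Cyp4f39 had mean differences of 0.32 and 0.33 (adjusted p = 0.500 and 0.504, limma) at signals of 43.6 to 315, which came to 0.12 and 0.08 for Cyp4f16 and Cyp4f39 without both livers that stand apart.

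The enzymes that take over from the Cyp4 reaction did not pass either. Of 17 omega-oxidation partners tested, 14 had mean differences below 0 over the 3 days, with a median of -0.13, and 0 passed. Of all genes tested, 50.8% were below 0 and 1.68% passed. The most changed in size were Aldh3a2, the fatty aldehyde dehydrogenase that oxidises omega-hydroxylated chains further (-0.87, adjusted p = 0.228), the peroxisomal thiolase Acaa1b (-0.72, 0.284), the peroxisomal bifunctional enzyme Ehhadh (-0.70, 0.255) and Aldh3b1, another aldehyde dehydrogenase (0.42, 0.163, all by limma). Without both livers that stand apart, Ehhadh and Acaa1b passed with smaller values of -0.40 and -0.33 (adjusted p = 0.0168 and 0.0329, limma), and 11 of 17 partners were below 0 with a median of -0.07. Aldh3a2 was then at -0.39.
Of 32 genes of PPARa, its partners and its classical targets, 26 were below 0 over the 3 days with a median of -0.26. Aldh3a2, Acaa1b and Ehhadh are also among the omega-oxidation partners, so that the lists are not independent. In this list 2 genes passed, against 1.68% of all genes tested. These were Acadl, the long-chain acyl-CoA dehydrogenase of mitochondria (-0.25, adjusted p = 0.0346), and Cidec, a lipid droplet protein (-1.38, adjusted p = 0.0213). Cidec was too dim to be tested at days 1 and 3.
Acot1, a cytosolic acyl-CoA thioesterase, had the largest value of the list, -1.44, and did not pass (adjusted p = 0.123, limma). Ppara itself had -0.41 (adjusted p = 0.311). Once both livers that stand apart were left out, 2.77% of all genes passed (365 of 13185, 124 of them lower). In this list 6 genes then passed, all lower. They were Acadl, Cidec, Ehhadh, Acaa1b, Acot1 (-0.92, adjusted p = 0.00068) and the mitochondrial carnitine palmitoyltransferase Cpt2 (-0.29, adjusted p = 0.0198, limma).
At day 14 the median of this list was -0.46, with 28 of 32 genes below 0 and none past the test. Without replicate 3 the median of day 14 was -0.33, with 27 of 32 below 0. Cpt2 (-0.53), Cidec (-2.15) and Fgf21, a hormone of the fasted liver (-1.46), then passed, against 1.05% of all genes (123 of 11742).
In the treated livers of day 14, replicates 1 to 5 in turn, 15, 22, 24, 17 and 7 of the 32 genes of the PPARa list were below every saline liver of the day, against 19.6%, 16.9%, 35.1%, 16.4% and 21% of all genes tested. The count was 24 in replicate 3, the liver with the low Cyp4a14 signal, where 35.1% of all genes were below. It was 22 in replicate 2, whose Cyp4a14 signal lay within the saline range, where 16.9% were. These counts do not measure size, and the deviations of the other replicates were smaller than those of replicate 3 for most genes. A link between this list and the Cyp4a14 signal was not tested.

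**Figure D5:**
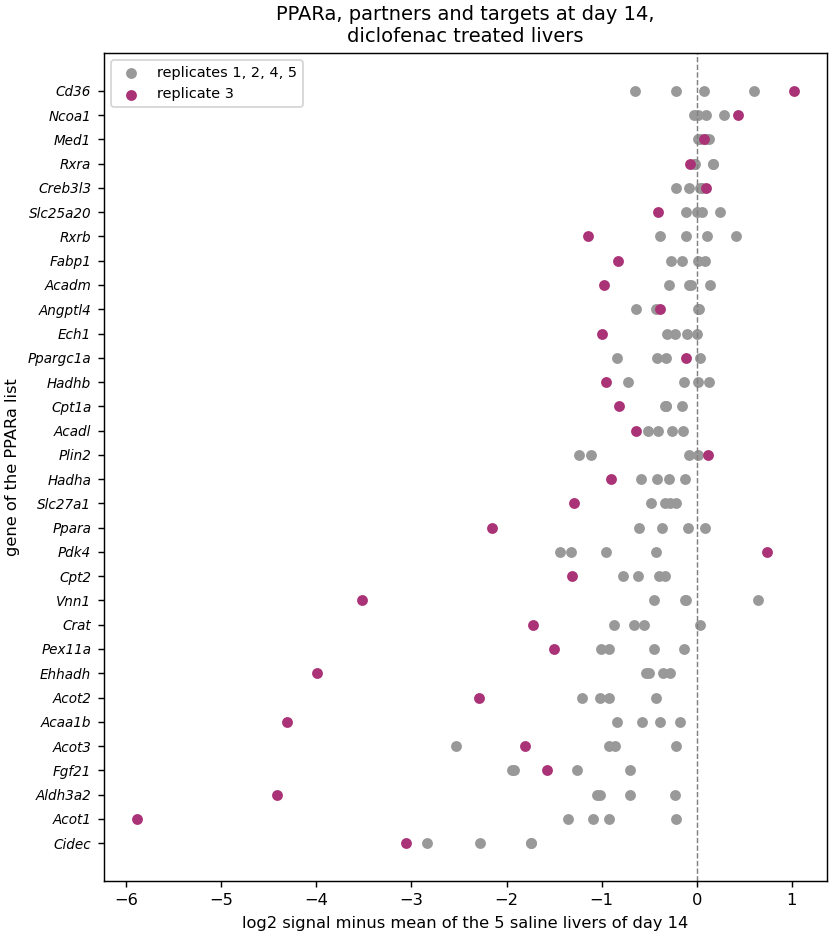
Log2 signal minus the mean of the 5 saline livers of day 14 for the 32 tested genes of the PPARa list (rows, ordered by their mean) in each of the 5 diclofenac treated livers of day 14. Replicate 3 (purple) is below every saline liver in 24 of the 32 genes, and replicates 1, 2, 4 and 5 (grey) are in 15, 22, 17 and 7, at smaller deviations for most genes.

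On the leukotriene side, 13 genes were tested, 6 of them with mean differences below 0, and 0 passed. Alox5ap, the activating protein of the 5-lipoxygenase that starts leukotriene synthesis, had 0.67 (adjusted p = 0.125), and Pla2g4a, the phospholipase that releases arachidonic acid, had 0.61 (0.197). The epoxide hydrolases Ephx2 and Ephx1 had -0.46 (0.188) and -0.42 (0.364), all by limma over the 3 days. Ephx2 passed without both livers that stand apart, with -0.26 (adjusted p = 0.0332, limma), while Alox5ap was at 0.41 and Ephx1 at -0.16.
The acute phase list behaved otherwise, since 4 of its 16 genes passed at day 3 and 11 over the 3 days (13 without both livers that stand apart), all of them higher. Of all genes tested, 0.202% passed at day 3 and 1.68% over the 3 days (2.77% without both livers). Saa2 and Lcn2 rose by 4.19 each, Orm2 by 3.60 and Saa3 by 2.52 on the log2 scale, in the same comparison in which Cyp4b1 and Cyp4f13 fell.
Among the marker lists over the 3 days, 9 of 9 neutrophil markers had differences above 0, and 3 passed (S100a8 3.57, S100a9 3.27 and Prtn3 4.08). All 10 of 10 Kupffer cell markers had differences above 0 with none past the test. Passed and lower were 1 of 7 endothelial markers (Oit3, -0.42) and 1 of 8 stellate cell markers (Reln, -0.58). Of the endothelial markers 5 of 7 had differences above 0 (median 0.03), and of the stellate cell markers 3 of 8 (median -0.19). No marker had a signal of 0. The part of these cells in the Cyp4 values was not tested.

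The genes whose log2 signals were most like those of each member over the 22 arrays are given as a description, since the arrays share days, treatments and the 2 livers that stand apart. Cyp4a14 was most like Glrx (r = 0.947), Hsd17b10 (0.934) and Ei24 (0.930), and these values were 0.936, 0.924 and 0.933 over 20 arrays without the 2 livers.
Cyp4b1 was most like Exosc5 (0.929), Sirt3 (0.913) and Dclk3 (0.905), and Cyp4f13 was most like 0610012G03Rik (0.878), Cmtm4 (0.853) and Vwce (0.841).
Cyp4f14 was most like Abca8a (0.966), Inmt (0.963) and Ociad2 (0.958).
Cyp4f15 was most like Rab5if (0.949), the epoxide hydrolase gene Ephx2 (0.945) and Lactb2 (0.936).
Cyp4v3 was most like Ugt2b1 (0.963), Slco1a1 (0.946) and Mme (0.937), which came to 0.887, 0.832 and 0.815 without the 2 livers. No member was among the 3 genes most like another member.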

How the data were processed

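Liver RNA of 22 mice was measured on 22 arrays. The authors processed the scans with MAS5, which scales each array to a common level, and deposited linear signal intensities, 1 per probe set and array. The mean after trimming 2% from either end was 500 on every array, and medians were 75.2 to 89.9. Detection calls and scan dates were not used here. MAS5 subtracts background probe by probe, so that low values are uncertain. Fold changes between dim signals can be overstated for this reason.

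Intensities were taken to log2 as deposited. Only probe sets with 1 gene symbol (34958 of 45101) named a gene, each gene being represented by its probe set of highest mean. The linear models of limma 3.58.1 (R 4.3.3) let the variance follow the signal and took 12 arrays of days 1 and 3, 10 arrays of day 14, and all 22 for the mean of the 3 days, the difference between day 14 and the earlier days, and saline at day 14. Tests were two-sided with Benjamini-Hochberg adjustment over all genes tested. The limma p-values set a difference of group means against the spread between livers of the same group. Exact permutation tests counted all splits of livers within days, and those of single genes are unadjusted. Python 3.11.15, pandas 2.3.3, numpy 2.4.6, scipy 1.17.1 and matplotlib 3.10.9 were used, and the fit was tested on simulated data.

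The members, the lists and the markers were chosen with earlier results of these data known. Named are all members, every list gene past the test, the 4 of largest mean difference per list and the 3 most like each member. Ppara, Cpt2, Fgf21 and the markers S100a8, S100a9, Prtn3, Oit3 and Reln were named after their values were seen. Replicate numbers did not pair the livers (deviations correlated above 0.1 in 1 of 11 pairs, from -0.11 to 0.11). Alternatives were the filter (none, or the 60th percentile), quantile normalization, median centring, the median added before log2, the mean of probe sets or every probe set, other sets of arrays in a model, array weights, a replicate block, the methods' t-test and leaving out each array.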

Additional observations from a re-analysis of the deposited data

Results flagged for a closer look

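In the groups of 5 livers, the gap between the lowest or highest liver and its nearest neighbour was set against the whole range of log2 signals for the 7 probe sets of the members and the shared probe set, 16 groups in all. In 5 of the 16 the lowest liver exceeded the critical ratio of 0.71, and each time it was diclofenac day 14 replicate 3. The ratio was 0.940 for Cyp4a14, 0.947 for the probe set shared by Cyp4a10 and Cyp4a31, 0.852 for Cyp4f14, 0.841 for Cyp4f15 and 0.722 for the dimmer probe set of Cyp4v3. Chance gives such a ratio in about 1 of 20 groups, and the 5 values come from a single array and are not independent of each other. Cyp4b1 and Cyp4f13, the 2 members that passed the test over the 3 days, were not among them.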

How the results depend on the processing

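The count of 2 members past the test over the 3 days was 1 with each array centred on its median (Cyp4b1), 1 with a replicate block (Cyp4f13, while Cyp4b1 had adjusted p = 0.0755), 0 to 2 when 1 array was left out, and 2 without both livers that stand apart. On single days and for the differences of effects the count was 0 throughout. The count of 4 between saline groups of day 14 and earlier was 3 with centring or a replicate block (Cyp4f15 0.53 and 0.51, adjusted p = 0.0931 and 0.144), 3 or 4 when 1 array was left out, and 5 without both livers. There Cyp4v3 was added, by its brighter probe set alone. The numbers do not pair the livers, and the block changed no other call.
No difference that changed direction passed the test under any setting. Centring turned the saline day 3 difference of Cyp4b1 to 0.0029. Array weights gave -0.0315 and -0.0725 for Cyp4f13 and Cyp4f15 in the day 3 effect minus the day 1 effect, and 0.33 and 0.0320 for Cyp4a14 and Cyp4f14 in the day 14 effect minus the earlier effect. Without both livers that stand apart, these 4 were -0.0661, -0.17, 0.50 and 0.0749, Cyp4f15 at day 1 was 0.0031 and Cyp4a14 at day 14 was 0.0337.
Leaving out 1 array, Cyp4a14 ranged from -0.57 to 0.34 at day 1, from -1.17 to 0.0337 at day 14, from -0.86 to 0.0931 for day 3 minus day 1 and from -0.82 to 0.40 for day 14 minus earlier. Cyp4f13 ranged from -0.0661 to 0.18 and from -0.16 to 0.0533 in these 2 differences of effects and from -0.0015 to 0.0879 between saline days 3 and 1. Cyp4f15 ranged from -0.40 to 0.0031 at day 1, from -0.17 to 0.24 and from -0.39 to 0.0193, and Cyp4f14 and Cyp4v3 ranged from -0.31 to 0.26 and from -0.40 to 0.0528 for day 14 minus earlier. Of the other alternatives for the diclofenac differences, 310 of 312 kept their direction.
Over all genes, the 224 that passed over the 3 days were 484 with array weights, 365 without both livers, and 108 (without diclofenac day 3 replicate 1) to 536 (without diclofenac day 14 replicate 3) when 1 array was left out. The 26 of day 3 were 16 without a filter, 13 with the mean of probe sets, 145 with each day on its own arrays, 156 with array weights, 3 with a replicate block, 1 with all 22 arrays in a single model and 0 to 178 when 1 array was left out. At day 14, 0 genes became 15 with centring, 3 with quantile normalization, 2 with the median added, 109 with array weights, 133 with all 22 arrays, 1 with the block and up to 123 without diclofenac replicate 3. The 28 between saline days 3 and 1 were 0 to 224, and the 3 of the day 14 effect minus the earlier effect were 0 to 17. The 3787 of 13340 genes between saline day 14 and earlier were 7474 of 23658 probe sets with every probe set on its own, where more was tested. The causes were not tested.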

Other observations

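A probe set shared by Cyp4f37 and Cyp4f16, neighbours of the Cyp4f members on chromosome 17, had higher mean signals in the diclofenac group on each day. Its signals were 10.2, 41.4 and 63.0 with saline and 46.1, 286.8 and 100.4 with diclofenac at day 1, and 53.4, 32.8 and 7.29 with saline and 139.6, 64.0 and 89.4 with diclofenac at day 3. The signals of day 14 were 54.6, 76.7, 107.7, 48.7 and 53.0 with saline and 133.4, 104.8, 286.9, 80.4 and 35.9 with diclofenac, so that the groups overlap (difference 0.66, exact permutation p = 0.26), and the difference was 0.29 without replicate 3. The mean difference over the 3 days was 1.51 on the log2 scale (adjusted p = 0.0921, limma over every probe set, exact permutation p = 0.0045, unadjusted), which did not pass. It was 1.16 without both livers that stand apart (adjusted p = 0.191, limma). The array medians were 75.2 to 89.9, so that these signals lay from below to over 3 times the median, and the probe set was named after its values were seen. The highest values of day 1 and day 14 were in the 2 livers that stand apart, at 286.8 in diclofenac day 1 replicate 2 and 286.9 in diclofenac day 14 replicate 3.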
